A study of Homo sapiens with 33 samples.

Results

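Karpas422 cells kept in the solvent DMSO for 6 days were compared with cells at 0 h, across all genes. Karpas422 is a human cell line from a diffuse large B cell lymphoma, a tumour of germinal-centre-like B cells, and the series title describes it as EZH2 mutant. The comparison took the 3 arrays of cells in DMSO at day 6 and the 3 at 0 h, 6 of the 33 arrays of the series, and for each of 19775 genes the brightest probe set was taken. The other arrays hold cells in DMSO for 8 h or for 1, 2 or 3 days and cells given EED226 at 5 µM, an allosteric inhibitor of the Polycomb complex PRC2 that binds its EED subunit, for the same times or for 6 days. The treated arrays are called EED226 by their titles alone: the design text has an EZH2 inhibitor instead, and EI1 stands beside EED226 in the protocol. Times are in days after 8 h, as in the protocol text; titles use hours. No treatment is stated for the 0 h cells, so the contrast holds time in culture and DMSO together and the 2 cannot be told apart. The design text presents the replicates as biological and names no day or batch. All cells were of 1 line, grown in RPMI-1640 medium with fetal bovine serum, and the labels say nothing of medium changes. Since the RNA is from bulk cultures, a change in all cells and a larger change in some of them cannot be told apart.

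Levels are deposited log2 values on the RMA scale, so a difference of 1 is 2-fold; means carry the SD over 3 arrays, and differences carry the standard error (SE) from limma, a linear model fitted across all genes. A gene is said to have passed the test at a Benjamini-Hochberg adjusted p under 0.05 (limma, two-sided, over 19775 genes). Array medians lay between 4.06 and 4.18, and a gene whose mean lies below 4.18 is called dim here. DMSO day 6 replicate 3 stood apart: it correlated with r of 0.987 and 0.986 with replicates 1 and 2, which had r of 0.997 with each other, and within the other groups r was 0.994 or more. Its 75th percentile was 6.10, against 6.47 to 6.60 on the other 0 h and DMSO arrays. Against the mean of replicates 1 and 2 it was lower by a median of 0.16 among the brightest genes and higher by 0.08 among the dimmest, with genes in 3 equal classes of level. Its controls of RNA integrity were not apart, since the ACTB 3' minus 5' difference was 2.79 to 3.33 over the 6 arrays and that of GAPDH 0.24 to 0.29. The main counts, and each call that it decides, are therefore also given without this array. All 7 measured B cell markers were brighter than the array medians in both groups, and with limma 0 of them passed the test (1 higher and 1 lower at an unadjusted p under 0.05); of 9 myeloid markers, 0 were so at 0 h and 1 at day 6. Of 12 T and NK cell markers 6 lay above the medians in both groups, with CD3G at a mean of 10.56 at 0 h, and of 9 fibroblast and endothelial markers 4 did, with DCN at 12.51; these probe sets were bright at both times, and 0 T and NK cell markers passed the test (1 had an unadjusted p under 0.05). Of the fibroblast and endothelial markers 2 were higher at day 6: COL3A1, dim at 2.49 ± 0.13 and 3.20 ± 0.33, and PECAM1, at 4.71 ± 0.26 and 5.34 ± 0.24. COL3A1 did not pass on a probe set outside the cross-matching class, that is without _s or _x in its name (difference 0.11, limma adjusted p = 0.728). The class joins both suffixes here, and _s can also mark a match to several transcripts of 1 gene. A call on such a probe set is thus not shown to come from another gene. The part of these markers in the results below was not tested.

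The following gene programmes carry most of what follows. Type I interferons act through their receptor, JAK kinases and a transcription factor complex that holds IRF9, which binds the interferon-stimulated response element and turns on antiviral genes. SREBP transcription factors, released from the endoplasmic reticulum when sterols are low, turn on genes of cholesterol and fatty acid synthesis. NRF2, which KEAP1 holds in check, turns on detoxifying and antioxidant enzymes when cells meet oxidants.

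Of 19775 genes, 164 (0.829%) were higher and 177 (0.895%) lower after 6 days in DMSO, 341 (1.72%) in all. The larger changes were nearly all rises: 35 genes (0.177%) were at least 2-fold higher and 3 (0.0152%) at least 2-fold lower. Of those 35 rises, 25 were in the list of interferon response genes and 3 in the lists of cholesterol and fatty acid synthesis, while 7 were in neither: OLMALINC, DDX60L, DDX60, PLSCR1, EGR1, L3MBTL4 and TLR7. L3MBTL4, which encodes a protein with MBT repeats, had 8.02, 7.92 and 7.44 at 0 h and 9.24, 8.93 and 8.61 at day 6, a rise of 1.13 ± 0.15 (limma adjusted p = 2.42e-05) with no overlap between the groups. The 3 falls were HMOX1, NQO1 and MPEG1. The rises depended less on DMSO day 6 replicate 3 than the falls. Without it 228 genes (1.15%) were higher, including 138 of the 164, and 32 (0.162%) were lower, including 31 of the 177. At least 2-fold, 42 (0.212%) were then higher and 1 (0.00506%) lower. The 3 values of the groups did not overlap for 1011 higher genes (5.11%) and 1883 lower genes (9.52%). With 3 arrays in each group such separation also arises without any change, so these counts are descriptions only. Of the genes that passed, 161 of the 164 higher and 175 of the 177 lower did not overlap, so non-overlap adds little to a call. A fit to the 6 arrays alone, which has few degrees of freedom, left 15 higher and 0 lower genes, with 474 higher and 747 lower at an unadjusted p under 0.05; 11 of these 15 were interferon response genes, and INSIG1 and SCD were lipid genes. Without 0 h replicate 1 the counts were 99 higher and 28 lower.

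**Figure D1:**
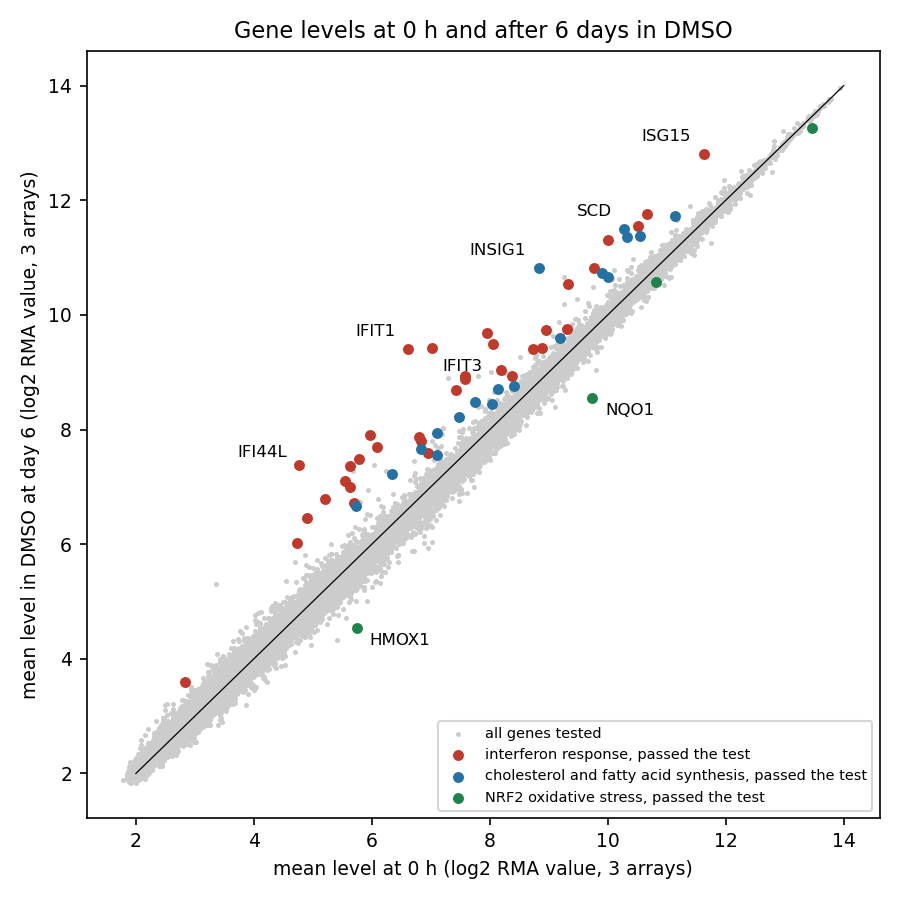
Mean log2 RMA value in DMSO at day 6 (y axis) against the mean at 0 h (x axis), 3 arrays each; the line marks equal levels. Grey points are the 19775 genes, and coloured points are members of 3 groups of genes that passed the test. Interferon response genes such as IFIT1 (6.61 to 9.41) and lipid genes such as INSIG1 (8.83 to 10.82) lie above the line, and NQO1 (9.74 to 8.55) below it.

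Interferon response genes rose as a group after 6 days without any added interferon named in the labels. Of 41 measured members 34 were higher and 0 lower, with a median difference of 1.10, while the median over all genes was -0.02 and 0.829% of all genes were higher. Without DMSO day 6 replicate 3, 35 were higher with a median of 1.22, and 27 of the 34 passed whichever 1 of the 6 arrays was left out. This list had been seen to rise in an earlier look at these data, so its count is a description.

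Promoters of the 3 members with the largest rises are shown because each holds the letters of the interferon-stimulated response element. These are the 250 bases before the RefSeq start site on GRCh38.p14, 5′ to 3′ on the plus strand, with matches to its core in capitals; the core searched was TTTC, a pair of any bases, and TTTC, on either strand. IFIT1 (chr10:89392373-89392622), IFI44L (chr1:78620198-78620447) and IFIT3 (chr10:89327747-89327996) each hold 2 matches.
IFIT1: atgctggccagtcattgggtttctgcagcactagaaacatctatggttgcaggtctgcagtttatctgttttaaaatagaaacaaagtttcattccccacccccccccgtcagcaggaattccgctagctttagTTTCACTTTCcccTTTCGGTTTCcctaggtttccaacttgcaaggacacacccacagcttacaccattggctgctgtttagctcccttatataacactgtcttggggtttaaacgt
IFI44L: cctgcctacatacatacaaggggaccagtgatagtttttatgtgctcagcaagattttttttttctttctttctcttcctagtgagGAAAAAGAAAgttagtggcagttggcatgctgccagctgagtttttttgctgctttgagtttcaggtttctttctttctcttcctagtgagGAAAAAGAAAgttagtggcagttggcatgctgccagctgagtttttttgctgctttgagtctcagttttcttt
IFIT3: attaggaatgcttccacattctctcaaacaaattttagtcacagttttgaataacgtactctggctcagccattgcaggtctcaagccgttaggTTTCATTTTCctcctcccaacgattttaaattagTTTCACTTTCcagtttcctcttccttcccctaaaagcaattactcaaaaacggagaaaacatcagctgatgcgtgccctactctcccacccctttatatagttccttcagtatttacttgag

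In windows of 250 bases before to 50 after the start, either strand, that core was found in 24 of the 34 interferon response genes with a promoter in the table (70.6%), and in 1255 of 35116 promoters of all genes (3.57%). Of the 28 members that were higher and had a promoter, 19 held it (67.9%). A gene counted if any of its promoters held the core, while the share of all promoters counts each promoter singly. The shares are therefore of unlike units. A match describes the letters only.

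Among the effectors, IFIT1, which binds viral RNA that lacks the host's cap methylation, changed most. Its values were 6.80, 6.55 and 6.49 on the 0 h arrays and 9.48, 9.53 and 9.23 on the DMSO day 6 arrays, a rise of 2.80 ± 0.14 (SE) or 6.98-fold (limma adjusted p = 2.28e-13). The groups did not come near to overlapping, and replicate 3 was only slightly below its fellows. IFI44L, an interferon-induced gene next to IFI44, went from 4.88, 4.75 and 4.68 to 7.63, 7.61 and 6.89, a rise of 2.61 ± 0.17 (limma adjusted p = 9.36e-11), and replicate 3 was clearly the lowest of the later arrays. IFIT3, a partner of IFIT1, went from 6.97, 7.05 and 7.03 to 9.42, 9.58 and 9.26, a rise of 2.41 ± 0.14 (limma adjusted p = 1.52e-11), with all 3 later arrays close together.

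XAF1, an interferon-induced promoter of apoptosis, had 6.01, 5.98 and 5.93 at 0 h and 8.13, 8.22 and 7.36 at day 6, and rose by 1.93 ± 0.20, or by 2.20 without replicate 3. RSAD2, the antiviral enzyme viperin, had 5.59, 5.78 and 5.53 and then 7.58, 7.73 and 6.80, and rose by 1.74 ± 0.24. For both, replicate 3 lay well below replicates 1 and 2 but above every 0 h array. OAS2, one of the synthases that make 2'-5' oligoadenylate to activate RNase L, rose by 1.70 ± 0.16, and its relatives OAS1, OAS3 and OASL by 1.43 ± 0.11, 0.97 ± 0.16 and 1.28 ± 0.18. OAS3 differed by 0.60 with the mean of its probe sets and did not pass (limma adjusted p = 0.0506). OAS1 had nearly equal values at day 6, 9.52, 9.48 and 9.47, against 7.91, 8.18 and 8.08 at 0 h. The antiviral GTPases of the MX family rose, MX1 by 1.05 ± 0.12 and MX2 by 1.06 ± 0.14, and the growth-restricting SAMD9 and SAMD9L by 1.22 ± 0.14 and 1.27 ± 0.09.

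Some abundant members were also high on 1 of the 0 h arrays. ISG15, a ubiquitin-like modifier, had 11.39, 12.31 and 11.19 at 0 h and 12.85, 12.81 and 12.78 at day 6, a rise of 1.18 ± 0.25 (limma adjusted p = 0.0104). IFI6 had 9.72, 10.78 and 9.50 and then 11.33, 11.30 and 11.32, a rise of 1.32 ± 0.29 (limma adjusted p = 0.013). In both, 0 h replicate 2 stood about 1 unit above the other 0 h arrays, yet below all later ones. Neither passed without 0 h replicate 1 (limma adjusted p = 0.0896 for ISG15 and 0.112 for IFI6) or without 0 h replicate 3 (0.0685 and 0.0805). IFITM1, a membrane protein that blocks virus entry, rose by 1.10 ± 0.18, and its relatives IFITM3 and IFITM2 differed by 0.45 ± 0.12 and 0.37 ± 0.14 (limma adjusted p = 0.0443 and 0.173). IFITM3 did not pass without DMSO day 6 replicate 3 (limma adjusted p = 0.147), DMSO day 6 replicate 1 (0.0564), 0 h replicate 1 (0.227) or 0 h replicate 3 (0.11).

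Among regulators of the pathway, IRF7, IRF9 and USP18 rose, while IRF1, IRF3 and SOCS1 did not pass the test. IRF7, which amplifies interferon production, had 6.08, 6.20 and 5.97 at 0 h and 7.79, 7.85 and 7.45 at day 6, a rise of 1.62 ± 0.12 (limma adjusted p = 1.09e-09). IRF9, a DNA-binding factor of the interferon response, went from 8.24, 8.01 and 8.34 to 9.09, 9.15 and 8.89 and rose by 0.85 ± 0.09. USP18, which removes ISG15 and dampens receptor signalling, rose by 1.56 ± 0.16 from a mean of 5.55 ± 0.10. IRF1, another factor of the family, had a difference of -0.16 ± 0.13, and its second probe set had the other sign. IRF3, which turns on interferon genes, differed by 0.11 ± 0.09, and SOCS1, a brake on JAK kinases, by 0.52 ± 0.18 (limma adjusted p = 0.128; 0.00298 without DMSO day 6 replicate 3). HERC5, the ligase for ISG15, was dim in both groups at 2.42 ± 0.10 and 2.54 ± 0.14.

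A list of nucleic acid sensors and their adaptors, of RNA and of DNA, was chosen after values had been seen. In it 7 of 20 measured genes rose and 0 fell (1 had an unadjusted p under 0.05). Over all genes 0.829% were higher, and the median of the list was 0.09. RIGI, IFIH1 and IFI16 of these 7 are also in the interferon response list and were counted there. RIGI, a cytosolic sensor of viral RNA, had 7.64, 7.43 and 7.67 and then 8.96, 9.02 and 8.69, a rise of 1.31 ± 0.09 (limma adjusted p = 2.94e-10). Every later array exceeded every 0 h array by about 1 unit or more. DHX58, a regulator of RIGI and of IFIH1, rose by 1.00 ± 0.11, from 5.94 ± 0.02 to 6.94 ± 0.24. ADAR, which edits double-stranded RNA, and MYD88, the adaptor of Toll-like receptors, rose by 0.33 ± 0.06 and 0.30 ± 0.06; MYD88 did not pass without 0 h replicate 1 (limma adjusted p = 0.0591). TLR7, an endosomal RNA sensor, had 4.75, 4.85 and 4.48 and then 6.02, 6.18 and 4.88, so replicate 3 lay close to the 0 h arrays, and its rise of 1.00 ± 0.26 was 1.41 without that array. TLR7 did not pass when any 1 of the other 5 arrays was left out, with limma adjusted p from 0.0656 without 0 h replicate 2 to 0.135 without 0 h replicate 1. IFIH1, a related sensor, was dim at 2.84 ± 0.07 and 3.60 ± 0.30, and did not pass without DMSO day 6 replicate 1 (limma adjusted p = 0.0576), 0 h replicate 1 (0.0534) or 0 h replicate 2 (0.0626). With the mean of its probe sets TLR7 differed by 0.52 and IFIH1 by 0.34, and neither passed (limma adjusted p = 0.149 and 0.15).

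The interferons themselves were dim. In a list also chosen after values had been seen, 0 of 18 measured interferon genes passed the test (1 had an unadjusted p under 0.05), and all 18 means lay below the highest array median in both groups. IFNB1 had means of 2.90 ± 0.38 and 3.08 ± 0.17, IFNG 2.64 ± 0.20 and 2.51 ± 0.06, and IFNL1 3.25 ± 0.11 and 3.16 ± 0.09. A level that low does not separate an absent transcript from a rare one. Of 9 receptor chains and JAK kinases 0 passed (1 was higher and 1 lower at an unadjusted p under 0.05); IFNAR1 differed by -0.06 ± 0.10 (0.05 without DMSO day 6 replicate 3), IFNAR2 by -0.18 ± 0.08, JAK1 by -0.20 ± 0.11 and TYK2 by -0.06 ± 0.10 (0.09 without it).

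Other interferon-stimulated genes, all but HERC5 outside the first list, gave a mixed picture. Of 34, again chosen after values had been seen, 15 were higher and 0 lower, with a median of 0.43, beside 0.829% of all genes higher. Without DMSO day 6 replicate 3, 19 were higher. DDX60, a helicase that assists RIGI, went from 7.17, 7.68 and 7.03 to 8.92, 8.97 and 8.79 and rose by 1.60 ± 0.17, and PLSCR1, a phospholipid scramblase with antiviral activity, from 9.11, 9.36 and 9.31 to 10.75, 10.70 and 10.53, by 1.40 ± 0.10. PLSCR1 had 2 further probe sets, of which 0 had the other sign. Its call rested on a probe set of the cross-matching class, and its probe set outside that class did not pass (limma adjusted p = 0.696). DDX60L, next to DDX60, rose by 1.60 ± 0.23 and was in the same position (limma adjusted p = 0.579). The antigen presentation lists, whose genes interferon can also raise, did not follow. With limma 0 of 17 MHC class I genes passed (4 higher and 1 lower at an unadjusted p under 0.05), with a median of -0.06 (0.04 without DMSO day 6 replicate 3), and 0 of 16 MHC class II genes (2 higher and 3 lower unadjusted), with a median of 0.01.

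**Figure D2:**
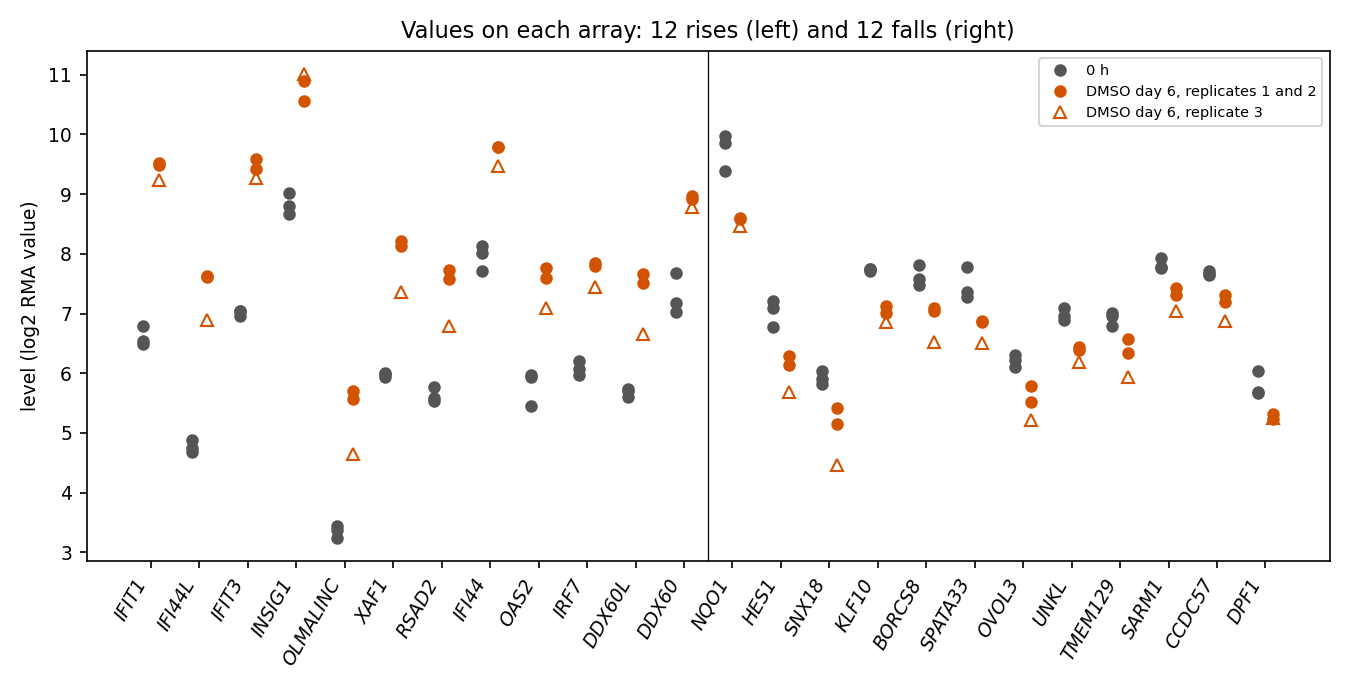
Log2 RMA values on each array (y axis) for the 12 largest rises and 12 largest falls (x axis) among genes that passed the test with and without DMSO day 6 replicate 3; grey points are the 0 h arrays, filled orange points DMSO day 6 replicates 1 and 2, and open triangles replicate 3. In the rises replicate 3 is the lowest later array in every gene except INSIG1, and in 11 of the 12 falls it is also the lowest, DPF1 being the exception.

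The cholesterol synthesis list formed the other group that rose. Of 21 measured members 13 were higher and 0 lower, with a median difference of 0.57, beside 0.829% of all genes higher. The list holds not only enzymes but also genes that regulate or move sterols. INSIG1, SREBF2, STARD4 and MYLIP, described below, are counted among the 13, and ABCA1 among the 21. Without DMSO day 6 replicate 3, 15 were higher with a median of 0.62, and 12 of the 13 passed whichever 1 of the 6 arrays was left out. Of the 9 measured members of the fatty acid synthesis list 5 were higher and 0 lower, beside 0.829% of all genes higher. The median was 0.44 (5 and 0.46 without DMSO day 6 replicate 3). The factor SREBF1 is counted among the 5, and 4 of the 5 passed whichever 1 of the 6 arrays was left out.

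INSIG1, which holds SREBP in the endoplasmic reticulum and is itself a target of SREBP, had 9.02, 8.67 and 8.80 at 0 h and 10.89, 10.55 and 11.01 at day 6. It rose by 1.99 ± 0.15, or 3.97-fold (limma adjusted p = 7.02e-10), and replicate 3 was here the highest array. The factors were higher as well. SREBF1 went from 6.39, 6.21 and 6.41 to 7.36, 7.36 and 6.98, a rise of 0.90 ± 0.13, and SREBF2 from 7.08, 7.17 and 7.07 to 7.73, 7.57 and 7.38, a rise of 0.46 ± 0.09 (limma adjusted p = 0.00652). For SREBF2, 1 of 2 further probe sets had the other sign, and the mean of its probe sets did not pass (limma adjusted p = 0.302).

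Enzymes along the sterol path rose from its first steps on. HMGCS1, which makes HMG-CoA, had 10.08, 9.89 and 9.71 and then 10.87, 10.62 and 10.69, a rise of 0.83 ± 0.12 (limma adjusted p = 7.05e-05). FDPS, which makes farnesyl diphosphate, rose by 0.59 ± 0.09, SQLE, the squalene epoxidase, by 0.65 ± 0.09, and LSS, which closes the sterol rings, by 0.57 ± 0.10. The late enzymes MSMO1 and DHCR7 rose by 1.04 ± 0.10 and 0.82 ± 0.11, MSMO1 from 10.45, 10.22 and 10.27 to 11.48, 11.14 and 11.44. For all of these the 3 later arrays lay above all 3 earlier ones. SQLE and LSS did not pass with the mean of their probe sets (limma adjusted p = 0.169 and 0.163), and IDI1, at 0.84 ± 0.11, was -0.21 on a probe set outside the cross-matching class. Other members of the path did not pass: MVK, PMVK and MVD, which follow mevalonate, differed by 0.15 ± 0.12, 0.01 ± 0.10 and 0.07 ± 0.20, and TM7SF2 by -0.03 ± 0.11.

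Genes that move or sense sterols were partly in step. STARD4, a sterol carrier, rose by 0.73 ± 0.13. MYLIP, which marks the LDL receptor for degradation and is a target of the sterol receptor LXR, had 7.22, 6.83 and 7.30 and then 8.04, 8.16 and 7.61, a rise of 0.82 ± 0.15 (limma adjusted p = 0.00236, and 0.0519 on a probe set outside the cross-matching class). ABCA1, an exporter of cholesterol and another LXR target, had 4.04, 4.04 and 3.99 and then 5.01, 5.26 and 4.02. Replicate 3 equalled the 0 h arrays there, so the difference of 0.74 ± 0.22 did not pass (limma adjusted p = 0.0868), while without it the difference was 1.11 (limma adjusted p = 0.00114).

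Of the fatty acid genes SCD, the desaturase that makes oleate, changed most, from 10.24, 10.37 and 10.24 to 11.65, 11.34 and 11.52, a rise of 1.22 ± 0.11 or 2.34-fold (limma adjusted p = 5.77e-08). FASN, the fatty acid synthase, went from 7.90, 7.74 and 7.62 to 8.65, 8.34 and 8.44, a rise of 0.72 ± 0.12. All 3 later arrays exceeded the earlier ones for both. FADS2, another desaturase, rose by 0.93 ± 0.15, but did not pass on a probe set outside the cross-matching class (limma adjusted p = 0.466). ACACA, the acetyl-CoA carboxylase, rose by 0.34 ± 0.08 and did not pass without DMSO day 6 replicate 1 (limma adjusted p = 0.056) or 0 h replicate 2 (0.0749). ACLY, which supplies acetyl-CoA, differed by 0.18 ± 0.06 and ELOVL6, an elongase, by 0.44 ± 0.13, and neither passed. OLMALINC, a noncoding RNA gene that neighbours SCD, rose from the dim values 3.44, 3.38 and 3.24 to 5.71, 5.57 and 4.65, by 1.96 ± 0.30.

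The letters of a sterol regulatory element were searched in the same windows. TCACNCCAC was found in 1 of 20 members with a promoter (5%), SREBF2, and in 1.13% of all 35116 promoters, either strand. Here too a gene counted if any of its promoters matched, so the shares are of unlike units. The SREBF2 window is shown for that match, in capitals, as the 250 bases before its start (chr22:41832855-41833104 on GRCh38.p14, plus strand, RefSeq).
SREBF2: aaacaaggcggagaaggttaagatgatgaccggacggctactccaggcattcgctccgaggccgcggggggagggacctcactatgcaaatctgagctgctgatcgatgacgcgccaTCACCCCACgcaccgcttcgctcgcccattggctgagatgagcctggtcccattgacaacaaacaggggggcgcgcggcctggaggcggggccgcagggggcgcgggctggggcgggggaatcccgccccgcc
No match says only that these letters were not in this window.

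The list of NRF2 targets moved the other way in a few members. Of 19 measured genes 4 were lower and 0 higher (0 higher and 9 lower at an unadjusted p under 0.05), with a median of -0.15, beside 0.895% of all genes lower. Without DMSO day 6 replicate 3, 1 was lower, NQO1. NQO1, a quinone reductase and a classical NRF2 target, had 9.86, 9.39 and 9.98 at 0 h and 8.60, 8.58 and 8.47 at day 6. It fell by 1.19 ± 0.18 on the log2 scale (limma adjusted p = 1.83e-04; 0.00137 without DMSO day 6 replicate 3), with the later arrays close together. HMOX1, the haem oxygenase, had 5.20, 6.45 and 5.60 and then 4.53, 4.71 and 4.36, a difference of -1.22 ± 0.28 (limma adjusted p = 0.0171). It did not pass without DMSO day 6 replicate 3 (limma adjusted p = 0.0746) or without 0 h replicate 2, its highest array (0.125). TXNRD1 and FTL, a thioredoxin reductase and the ferritin light chain, differed by only -0.25 ± 0.06 and -0.20 ± 0.05. Neither passed without DMSO day 6 replicate 3 (limma adjusted p = 0.184 and 0.147), and each was also lost without other single arrays of the 6, among them 0 h replicate 1 (0.191 and 0.25). GCLM and SLC7A11 of glutathione synthesis differed by -0.40 ± 0.11 and -0.43 ± 0.23 and did not pass, and NRF2 itself (NFE2L2) differed by 0.16 ± 0.08.

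**Figure D3:**
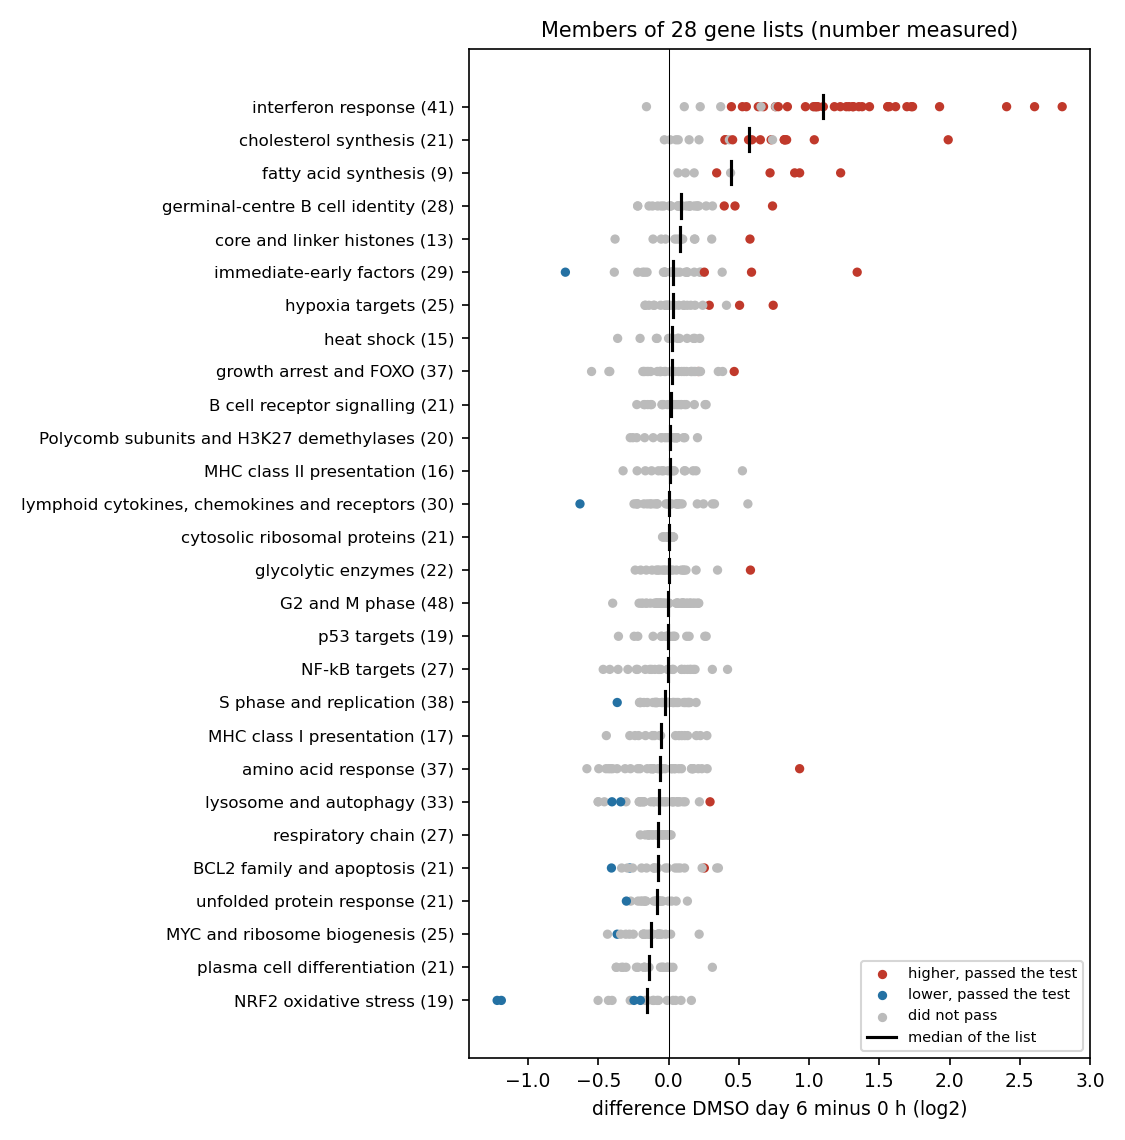
Differences between DMSO day 6 and 0 h (x axis, log2) for the measured members of 28 gene lists (y axis, number measured in brackets), in order of the list median, which a black line marks; red points were higher and blue points lower and passed the test, grey points did not. The interferon response (median 1.10), cholesterol synthesis (0.57) and fatty acid synthesis (0.44) lists lie apart from the other 25, whose medians lie between -0.15 and 0.09.

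Single members of other lists passed the test. In the germinal-centre B cell list 3 of 28 were higher and 0 lower, with a median of 0.09, beside 0.829% of all genes higher. At an unadjusted p under 0.05, 9 were higher and 1 lower. SERPINA9, a serpin of germinal-centre B cells, went from 8.06, 8.18 and 8.53 to 9.08, 8.99 and 8.92, a rise of 0.74 ± 0.12 (limma adjusted p = 7.66e-04), and STAP1, an adaptor of B cell receptor signalling, rose by 0.47 ± 0.08. Both sets of later values lay above all 0 h values. MYBL1, a MYB-family factor of germinal-centre cells, rose by 0.40 ± 0.09 and did not pass without DMSO day 6 replicate 1 (limma adjusted p = 0.0502) or 0 h replicate 2 (0.0789), nor with the mean of its probe sets (0.155).

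Of 25 hypoxia targets 3 were higher and 0 lower (4 and 0 unadjusted), with a median of 0.03, beside 0.829% of all genes higher. BNIP3L, a receptor for the removal of mitochondria, had 8.27, 8.23 and 8.23 and then 8.84, 8.99 and 9.14, a rise of 0.74 ± 0.08 (limma adjusted p = 7.68e-07). ANKRD37 rose by 0.51 ± 0.11 and did not pass without DMSO day 6 replicate 1 (limma adjusted p = 0.0601) or 0 h replicate 2 (0.0908), nor with the mean of its probe sets (0.125). P4HA1, a collagen hydroxylase, differed by 0.29 ± 0.07 and was lost without DMSO day 6 replicate 3 (limma adjusted p = 0.177) or any 1 of the 0 h arrays (0.0567 to 0.145). In the amino acid response list SLC38A2, a neutral amino acid transporter, was the 1 gene of 37 that passed, from 9.07, 9.26 and 9.46 to 10.29, 10.12 and 10.17, a rise of 0.93 ± 0.19. It did not pass without 0 h replicate 1 (limma adjusted p = 0.0839).

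Among 29 immediate-early factors 3 were higher and 1 lower, beside 0.829% and 0.895% of all genes. KLF10, a zinc-finger factor induced by TGF-beta, went from 7.74, 7.71 and 7.75 to 7.13, 7.01 and 6.86 and fell by 0.74 ± 0.14 (limma adjusted p = 0.00368), and passed whichever 1 of the 6 arrays was left out. EGR1 rose by 1.34 ± 0.35, but its 0 h arrays were spread widely at 5.86, 6.87 and 5.37, against 7.21, 7.70 and 7.22. Its call (limma adjusted p = 0.0416) was lost when any 1 of the 6 arrays except 0 h replicate 2 was left out, with adjusted p from 0.0502 without DMSO day 6 replicate 1 to 0.191 without 0 h replicate 1. EGR3 was dim at 2.63 ± 0.02 and 3.22 ± 0.42, with replicate 3 the highest, and did not pass without it (limma adjusted p = 0.25) or when any 1 of the 0 h arrays was left out (0.081 to 0.124). Cyclin G2 (CCNG2), a FOXO target of resting cells, rose by 0.47 ± 0.10 and did not pass without 0 h replicate 2 (limma adjusted p = 0.0789).

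Calls in further lists were few, and those named next hung on single arrays. BAK1 and BCL2L11, killers of the BCL2 family, differed by -0.41 ± 0.10 and -0.28 ± 0.07, and neither passed without DMSO day 6 replicate 3 (limma adjusted p = 0.203 and 0.212) or 0 h replicate 1 (0.274 and 0.217). MCL1, a survival protein of that family, differed by 0.25 ± 0.06, with the sign turned on a probe set outside the cross-matching class, and passed neither without 0 h replicate 1 (limma adjusted p = 0.221) or 0 h replicate 2 (0.0673) nor without DMSO day 6 replicate 1 (0.0668) or 2 (0.0551). In the lysosome list of 33 genes 1 was higher and 2 were lower, beside 0.829% and 0.895% of all genes. TPP1, a lysosomal peptidase, differed by 0.29 ± 0.08 and did not pass without DMSO day 6 replicate 1 (limma adjusted p = 0.0524) or 2 (0.0905), without 0 h replicate 1 (0.14) or 2 (0.158), or with the mean of its probe sets (0.66). TFEB, a master regulator of lysosomes, and PSAP, the saposin precursor, differed by -0.34 ± 0.07 and -0.40 ± 0.09; neither passed without DMSO day 6 replicate 3 (limma adjusted p = 0.0877 and 0.0735) or 0 h replicate 2 (0.0917 and 0.065). IL10RA, the interleukin-10 receptor, differed by -0.63 ± 0.14 and did not pass without DMSO day 6 replicate 3 (limma adjusted p = 0.0751) or 0 h replicate 1 (0.135). H1-10, a linker histone, rose by 0.58 ± 0.13 and did not pass without DMSO day 6 replicate 2 (limma adjusted p = 0.0583) or 0 h replicate 1 (0.151). In 5 other lists limma gave 0 passes: 15 heat shock genes (2 higher and 1 lower at an unadjusted p under 0.05), 19 p53 targets (2 and 2), 27 NF-kB targets (0 and 3), 21 plasma cell genes (1 and 5) and 21 genes of B cell receptor signalling (2 and 1).

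Few genes of proliferation and growth passed the test. MKI67, the proliferation antigen, had 9.37, 8.98 and 9.27 at 0 h and 9.23, 9.21 and 8.91 at day 6, a difference of -0.09 ± 0.11 with overlapping groups. With limma 0 of 48 genes of G2 and M phase passed (1 higher and 1 lower at an unadjusted p under 0.05), with a median of -0.01 (0.04 without DMSO day 6 replicate 3). Of 38 genes of S phase 0 were higher (0 unadjusted) and 1 was lower, cyclin E1 (CCNE1) by 0.37 ± 0.09, which did not pass without DMSO day 6 replicate 3 (limma adjusted p = 0.161), 0 h replicate 1 (0.191) or 0 h replicate 3 (0.109). The 21 measured cytosolic ribosomal proteins lay between -0.04 and 0.04, with 0 passed and 0 at an unadjusted p under 0.05. Of 27 respiratory chain genes 0 passed (4 lower unadjusted), with a median of -0.08. In the list of 25 genes that holds MYC and nucleolar genes 0 were higher (1 unadjusted) and 1 lower (8 unadjusted), with a median of -0.13. The 1 was PES1 of ribosome maturation, which did not pass without DMSO day 6 replicate 3 (limma adjusted p = 0.197), 0 h replicate 1 (0.112) or 0 h replicate 2 (0.105). MYC itself went the other way but did not pass. Over the alternatives it differed by 0.18 to 0.27 (limma adjusted p = 0.00598 to 0.802). Differences above 0 were found in 3 of the 27 and 2 of the 25. The groups did not overlap for 10 and 15 lower members, beside 9.52% of all genes. The nucleolar median was -0.11 without DMSO day 6 replicate 3. At day 3 it was -0.22, and that of the NRF2 list was -0.16.

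The genes of PRC2, the complex that EED226 targets in the other arm of the study, did not pass the test in DMSO. EED differed by 0.01 ± 0.05 from a mean of 12.09 ± 0.05, EZH2 by 0.11 ± 0.08 from 10.15 ± 0.08 and SUZ12 by 0.12 ± 0.07 from 11.33 ± 0.15. With limma 0 of 20 Polycomb subunits and H3K27 demethylases passed (2 lower at an unadjusted p under 0.05). These estimates bound the change by their errors and do not show that it was 0.

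Beyond the lists, the falls named next were moderate in size and touched genes of various roles. HES1, a repressor downstream of Notch, had 7.09, 7.21 and 6.78 and then 6.28, 6.14 and 5.69, and fell by 0.98 ± 0.18 (limma adjusted p = 0.00239). It did not pass on a probe set outside the cross-matching class (limma adjusted p = 0.605). SNX18, a sorting nexin, had 6.04, 5.90 and 5.82 and then 5.15, 5.42 and 4.46, and fell by 0.91 ± 0.15, or by 0.63 without replicate 3. For both, replicate 3 was the lowest day 6 array, as it was in 167 of the 177 falls (94.4%), in 68.9% of the rises and in 52.5% of all genes. OVOL3 and TMEM129, a ubiquitin ligase of the endoplasmic reticulum, fell by 0.70 ± 0.13 and 0.64 ± 0.12, and 18 of the 177 falls passed whichever 1 of the 6 arrays was left out. UNKL, BORCS8 and CCDC57 fell by 0.64 ± 0.08, 0.73 ± 0.14 and 0.55 ± 0.08, and each had further probe sets with the other sign (1 of 2, 1 of 1 and 3 of 4), as SNX18 had (1 of 1). With the mean of their probe sets SNX18, BORCS8 and SPATA33 did not pass (limma adjusted p = 0.235, 0.118 and 0.125), and CCDC57 differed by 0.019. SARM1, an NAD-degrading enzyme, fell by 0.56 ± 0.10 but not on a probe set outside the cross-matching class (limma adjusted p = 0.978). SPATA33 and DPF1 fell by 0.72 ± 0.14 and 0.53 ± 0.11, and neither passed without 0 h replicate 1 (limma adjusted p = 0.0876 and 0.119). DPF1 also did not pass on a probe set outside the cross-matching class (difference -0.18, limma adjusted p = 0.444). Smaller falls, picked after values had been seen, included the metallothionein genes MT1H, MT1X, MT1G, MT1E and MT1HL1. They differed by -0.33, -0.33, -0.28, -0.32 and -0.24, and by -0.32, -0.34, -0.28, -0.23 and -0.26 without DMSO day 6 replicate 3. Of these only MT1H passed whichever 1 of the 6 arrays was left out. Cross-hybridisation between them was not tested, and other metallothioneins are not described here.

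The largest falls that were lost without DMSO day 6 replicate 3, beside HMOX1, were MPEG1 and C11orf65. MPEG1, a pore-forming protein of phagocytes and B cells, had 6.67, 7.43 and 6.77 and then 5.85, 6.73 and 5.23, so the groups overlapped, and its difference of -1.02 ± 0.25 became -0.67 (limma adjusted p = 0.216). It did not pass without DMSO day 6 replicate 1 (0.0597) or 0 h replicate 2 (limma adjusted p = 0.15) either. C11orf65 differed by -0.82 ± 0.18, and by -0.73 without replicate 3 (limma adjusted p = 0.0829); it was also lost without 0 h replicate 1 (0.185). Among rises, beside EGR1, PECAM1, an endothelial and leukocyte adhesion molecule, and PFKFB4, a glycolytic regulator, were lost. They differed by 0.63 ± 0.15 and 0.58 ± 0.14, with replicate 3 the highest array of both, and by 0.50 and 0.47 without it (limma adjusted p = 0.168 and 0.127); neither passed without 0 h replicate 1 (0.178 and 0.137) and PECAM1 not without 0 h replicate 3 (0.109).

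**Figure D4:**
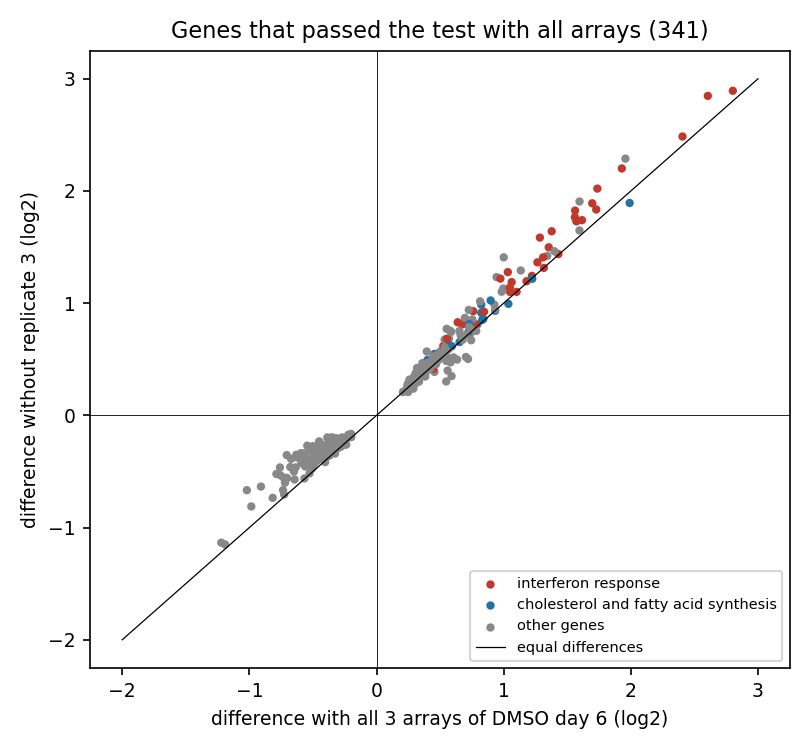
Differences between DMSO day 6 and 0 h (log2) for the 341 genes that passed the test, with all 3 DMSO day 6 arrays (x axis) and without replicate 3 (y axis); the diagonal marks equal differences, and colours mark interferon and lipid genes. Of the 177 falls 171 lie above the diagonal, closer to 0 without replicate 3, while IFIT1 goes from 2.80 to 2.89 and INSIG1 from 1.99 to 1.89.

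The DMSO arrays at earlier times place these changes in time; those comparisons share the 0 h arrays, so they are set side by side. With limma 0 genes passed at 8 h (523 had an unadjusted p under 0.05), 31 were higher (0.157%) and 4 lower (0.0202%) at day 1, 141 higher (0.713%) and 35 lower (0.177%), 0.89% together, at day 2, and 418 higher (2.11%) and 180 lower (0.91%), 3.02% together, at day 3. Of the 41 interferon response genes 14 were higher at day 1, 30 at day 2 and 37 at day 3, with medians of 0.02, 0.43, 1.07 and 1.17 at 8 h and days 1, 2 and 3 before the 1.10 at day 6. IFIT1 had means of 6.61 ± 0.17, 6.67 ± 0.27, 8.09 ± 0.14, 9.10 ± 0.13, 9.44 ± 0.12 and 9.41 ± 0.16 at 0 h, 8 h and days 1, 2, 3 and 6. Its means at 0 h and 8 h, and those at days 3 and 6, differed by less than their spread. For the lipid genes, of the 21 members of the cholesterol synthesis list 0 were higher at day 1, 2 at day 2 and 15 at day 3, with medians of 0.06, 0.24 and 0.55. INSIG1 had means of 8.83 ± 0.18, 8.88 ± 0.11, 9.45 ± 0.10, 10.04 ± 0.21, 10.72 ± 0.06 and 10.82 ± 0.24 over the same times. NQO1 was at 9.74 ± 0.31, 9.77 ± 0.23, 9.61 ± 0.21, 8.98 ± 0.18, 8.56 ± 0.14 and 8.55 ± 0.07.

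**Figure D5:**
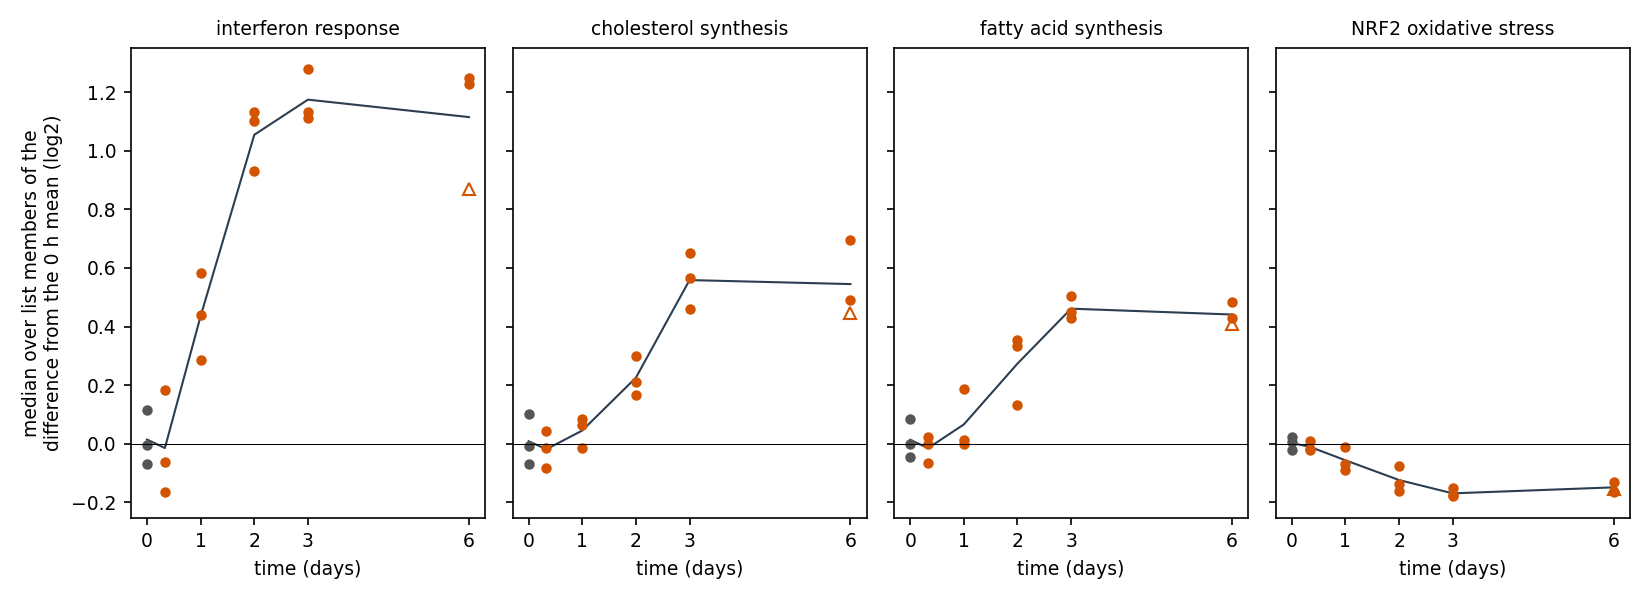
Median over the members of 4 gene lists of the difference from the 0 h mean (y axis, log2) on each 0 h array (grey) and DMSO array (orange) against time in days (x axis); the line joins the means over arrays, and the open triangle is DMSO day 6 replicate 3. The interferon list is near 0 at 8 h and reaches 1.23, 1.25 and 0.87 on the day 6 arrays, the lipid lists lie near 0 at day 1 and above it at days 2, 3 and 6, and the NRF2 list lies at -0.16, -0.13 and -0.15 at day 6.

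Between days 3 and 6 in DMSO, with limma 1 gene (0.00506%) was higher, LRRC15, and 0 were lower (911 higher and 1569 lower at an unadjusted p under 0.05). The interferon list differed by a median of -0.06 and the cholesterol list by -0.02. The amino acid response list, of which 3 members were higher at day 3 and 1 at day 6, differed by -0.29, with 0 members passed, beside -0.02 over all genes. LRRC15, a leucine-rich repeat membrane protein, was dim at day 3, with 3.62, 3.61 and 3.85 at day 3 and 4.36, 4.12 and 4.43 at day 6, a difference of 0.61 ± 0.10 (limma adjusted p = 0.0451), and 0 genes were higher without DMSO day 6 replicate 3, or without DMSO day 3 replicate 1 or 2. Without DMSO day 6 replicate 2, so with replicate 3 as 1 of 2 arrays, 44 genes were higher and 78 lower.

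Several of the genes that rose are neighbours on their chromosomes. Among the 164 higher genes were 17 pairs of adjacent genes, with 31 genes in them, and among the 177 lower genes 5 pairs. The runs included IFIT2, IFIT3, IFIT1 and IFIT5 on chromosome 10, with rises of 1.57 ± 0.18, 2.41 ± 0.14, 2.80 ± 0.14 and 1.56 ± 0.15, OAS1, OAS3 and OAS2 on chromosome 12, IFI44L and IFI44 on chromosome 1 and MX2 and MX1 on chromosome 21. SCD and OLMALINC on chromosome 10 were a pair outside the interferon genes. Families of related genes make up most of these pairs, and cross-hybridisation between their probes was not tested.

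At day 6 the arrays titled EED226 give a side view of the same genes. IFIT1 had a mean of 11.79 ± 0.11 there, against 9.41 ± 0.16 in DMSO and 6.61 ± 0.17 at 0 h. SCD had 10.02 ± 0.08, against 11.51 ± 0.16 and 10.28 ± 0.08, and NQO1 6.71 ± 0.40, against 8.55 ± 0.07 and 9.74 ± 0.31. The ACTB 3' minus 5' difference was 3.50, 4.07 and 4.14 on those EED226 arrays, above the 6 arrays compared here, and its part in these levels was not tested.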

How the data were processed

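The authors deposited log2 values, 1 for each probe set and array; RMA is named for them in the submitters' processing notes. Neither its version nor the set of arrays normalized together is given in the sources used here. RMA quantile normalization can hide a shift shared by all genes. RNA was labelled with a 3' IVT kit, per the labels' protocols. Of 54675 probe sets, 41097 had 1 gene symbol in the platform annotation, 1801 several and 11777 none; only the first were used. Differences were tested with limma 3.58.1 (R 4.3.3, lmFit and eBayes) on all 33 arrays with a mean for each of 11 groups, 22 residual degrees of freedom, no filter on dim genes. The number of arrays limits the precision.

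The members and lists were chosen with earlier results of these data known. The rule named the 12 largest rises and 12 largest falls that passed with and without DMSO day 6 replicate 3, did not overlap and reached the highest array median, 2 to 4 members of each list by p, EED, EZH2, SUZ12 and MKI67, and the 3 largest rises and falls lost without replicate 3; other genes were named after their values were seen. On simulated data with 19775 genes, 54% of rises of 0.5, 96% of 1 and 100% of 2, and 72% of falls of 0.5, were recovered, with 9 false calls. Promoters are from a RefSeq table. Alternatives were single arrays left out, a replicate block, fewer arrays, other normalizations, probe set choices and array weights.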

Additional observations from a re-analysis of the deposited data

Results flagged for a closer look

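LRRC15 was 0.61 ± 0.10 higher on the log2 scale at day 6 than at day 3 in DMSO (limma adjusted p = 0.0451), while its day 3 mean differed from 0 h by -0.06. It drew attention because the change between 0 h and day 6 differed from that between 0 h and day 3. Its levels were low, at 3.69 ± 0.14 and 4.30 ± 0.16, all 3 arrays at day 6 lay above all 3 at day 3, and the mean of its probe sets did not pass at day 6 against 0 h (limma adjusted p = 0.0745). Groups of 3 arrays were not screened for single outlying values.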

How the results depend on the processing

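Leaving out 1 array at a time gave 99 to 230 higher and 28 to 578 lower genes at day 6, 31 to 42 at least 2-fold higher and 1 to 6 at least 2-fold lower; at day 1 13 to 38 higher and 0 to 8 lower, at day 2 74 to 130 and 8 to 32, at day 3 249 to 357 and 75 to 168, and between days 3 and 6 0 to 44 and 0 to 78. The interferon list kept 28 to 35 higher members and a median of 1.07 to 1.24, the cholesterol list 12 to 15 and 0.49 to 0.62, and the fatty acid list 4 to 5 and 0.40 to 0.48. Same-numbered arrays of 0 h and DMSO day 6 deviated with r of 0.30, -0.15 and 0.18. The highest r with another number was -0.15, 0.26 and 0.18, and the numbers were not taken as pairs. For DMSO days 6 and 3 the same-number r was 0.16, 0.10 and 0.25, against 0.10, 0.12 and -0.12. Whether arrays of 1 number share an effect was not tested. With a replicate block 250 genes were higher and 548 lower at day 6, and 50 and 13 at day 1. It gave 70 lower at day 2 and 335 lower at day 3. With the 6 arrays alone 15 genes were higher, 15 at least 2-fold higher, 0 lower and 0 at least 2-fold lower, with 11 interferon, 1 cholesterol and 1 fatty acid gene higher. With the 18 arrays of 0 h and DMSO 106 were higher, 47 lower and 1 at least 2-fold lower at day 6, 9 and 0 at day 1, 68 and 9 at day 2, 254 and 96 at day 3, and 0 were higher between days 3 and 6. Renewed quantile normalization gave 267 higher at day 6, 63 higher and 17 lower at day 1, 74 lower at day 2 and 383 lower at day 3, and without DMSO day 6 replicate 3, an alternative chosen after seeing the data, 54 lower and 1 at least 2-fold lower at day 6. Arrays centred on their medians gave 77 lower at day 6, 20 higher and 0 lower at day 1, 15 lower at day 2 and 102 lower at day 3. Genes at or above the median level gave 262 higher and 591 lower, probe sets without multiple matches 101 and 102, array weights 441 higher, and trended, robust variances 383 lower. The fatty acid median was 0.58 among genes at or above the median level and 0.29 without probe sets of multiple matches, where 2 of 6 members were higher, and the cholesterol median was 0.38 with the mean of each gene's probe sets. Among values with a call, and for 1 marker list, some signs turned. The fibroblast and endothelial median was -0.0075 with array weights and -0.022 with renewed quantiles without replicate 3. Without probe sets of multiple matches UNKL (0.014), P4HA1 (-0.0038), IDI1 (-0.21), MCL1 (-0.25) and PARP9 of the interferon list (-0.26) turned. PARP9 also did not pass with the mean of its probe sets (limma adjusted p = 0.686). CCDC57 (0.019) turned with the mean of probe sets. Values near 0 without a call turned too: 6 of the 28 list medians without DMSO day 6 replicate 3, and under at least 1 alternative the differences of EED (to -0.19), SUZ12 (to -0.0011) and MKI67 (to 0.014). The causes were not tested, beyond the smaller numbers of arrays or genes in some fits.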
